A study of Mus musculus with 18 samples.

Results

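Polysome-bound RNA was compared with total RNA in LY6C cells, a sorted population of mouse myeloid-derived suppressor cells (MDSC). The comparison takes 6 of the 18 libraries of the study, chosen by their sample names: 3 polysomal libraries and the 3 total RNA libraries of the same cultures, which carry the numbers 2, 3 and 6. MDSC are immature myeloid cells known for holding back T cell responses. Bone marrow of C57BL/6 mice with the wild-type (WT) genotype was differentiated for 5 days. Cells high in CD11b and Ly6C and negative for Ly6G (LY6C) were then sorted apart from cells high in CD11b and Ly6G and intermediate in Ly6C (LY6G). All sorted cells were plated after sorting and harvested on the next day with cycloheximide, which freezes ribosomes on mRNA, so the polysomal and the total libraries share that treatment. No label gives the age or sex of the mice, or whether a culture pooled animals. LY6G cells gave 3 polysomal and 3 total libraries in the same way and serve below for reference, and unsorted marrow gave the remaining 6, which enter only alternative fits.

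Polysomes are mRNAs that carry several ribosomes and sink deep into a sucrose gradient. An mRNA that is bound by few ribosomes, or is kept out of translation, is therefore poorer in the polysomal than in the total RNA of a lysate. Known examples of such control are ferritin mRNAs, which iron regulatory proteins block at their 5′ end, and mRNAs in which ribosomes are caught by short upstream open reading frames. A difference between the fractions reflects the share of an RNA on polysomes relative to other RNAs in the library, and not the amount of protein made.

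The 6 libraries held 8559897 to 21138649 counts, and 10571 to 13773 genes reached 10 counts in a library. Both libraries of culture 2 were the deepest, and 93.4% to 93.7% of their counts lay in protein-coding genes. In cultures 3 and 6 that share was lower, at 66.7% and 72.4% in polysomal RNA and 37.3% and 54.5% in total RNA. Mitochondrial rRNA took 0.409%, 2.12% and 4.65% of the counts in polysomal RNA of cultures 2, 3 and 6, against 1.66%, 30.6% and 24.0% in total RNA. Nuclear rRNA-like genes took 4.47%, 30.1% and 21.8% in polysomal RNA and 2.74%, 30.5% and 19.3% in total RNA. The mitochondrial rRNA share was lower in polysomal than in total RNA of each culture. The nuclear rRNA-like share was lowest in culture 2 in both fractions and differed less between fractions than between cultures. The part of both shares in the results below was not tested.

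Levels are given in CPM, the count of a gene relative to the TMM-scaled size of its library. The sort was checked against marker lists. All 25 monocyte and macrophage markers were detected, with a summed level of 11380 to 19280 CPM in polysomal and 7948 to 11070 CPM in total RNA. Ly6c2, an antigen of the sort gate, had 383, 553 and 2385 CPM in polysomal RNA of cultures 2, 3 and 6, and 312, 380 and 332 CPM in total RNA. The fractions did not overlap for Ly6c2, but most of the difference came from culture 6. Its near-identical copy Ly6c1 had at most 4.72 CPM in any library, and reads of the pair cannot be told apart with certainty. Ly6g, the excluded antigen, had 7.40 to 17.2 CPM. The 26 neutrophil maturation markers summed to 7464 to 21070 CPM in polysomal and 3761 to 16950 CPM in total RNA. In culture 3 both sums were highest and exceeded those of the monocyte and macrophage markers, at 11380 and 7948 CPM. In cultures 2 and 6 the monocyte and macrophage sums were the higher ones. The 7 primary granule markers summed to 105.1 to 1829 CPM in polysomal and 44.8 to 1401 CPM in total RNA, also highest in culture 3. Neutrophil transcripts were thus measured in these libraries, and in bulk RNA fewer cells of a type and less RNA per cell cannot be told apart. Erythroid markers summed to 20.3 to 27.6 CPM in polysomal and 25.3 to 44.8 CPM in total RNA, with Car1, Epb42 and Rhag at 0. T and NK cell markers reached at most 27.2 CPM, with Gzma, Ncr1, Prf1 and Trbc1 at 0, and B cell markers at most 83.1 CPM. Megakaryocyte and platelet markers reached 1449 CPM in polysomal and 474.5 CPM in total RNA, both in culture 6, where Pf4 alone held 1216 and 304.8 CPM. Gp1bb and Treml1 of that list were at 0 in all 6 libraries. Eosinophil, basophil and mast cell markers summed to 110.7 to 275.3 and 93.0 to 126.2 CPM, and those of stroma and endothelium to 73.3 to 230.5 and 61.0 to 138.2 CPM, in polysomal and total RNA.

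Differences are given as the log2 value of polysomal minus total RNA from a fit that keeps each culture as a block, with the standard error of the fit (SE, n = 3 cultures). A positive value means more RNA on polysomes than in the lysate, relative to the other genes. Among 13911 tested genes none passed an adjusted p of 0.05 in edgeR's quasi-likelihood test (percent called 0% in either direction), and the lowest adjusted p was 0.0665. At an unadjusted p under 0.05 the test found 1346 genes higher (9.68% of tested genes) and 1344 lower (9.66%). DESeq2 in the same design called 26 genes higher (0.187%) and 209 lower (1.5%). Limma called 0 higher and 73 lower (0.525%), and 65 genes were called by both tools, which is 27.7% of the DESeq2 and 89% of the limma list. The single genes below therefore rest on a main test that called nothing, and their values are given with the count of cultures that share the direction. No test of a single culture is possible. The p values and SE rest on the spread over the LY6C and LY6G pairs together, moderated across genes, and not on these 3 cultures alone. In the edgeR fit of LY6C libraries alone 1625 of 11745 tested genes had an unadjusted p under 0.05, and the lowest adjusted p was 0.105.

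Direction across cultures gives a second view. Of the tested genes 3100 (22.3%) were higher in polysomal RNA in all 3 cultures and 2888 (20.8%) were lower in all 3. List members counted below as higher or lower in all 3 cultures are to be read beside these shares. Polysomal and total libraries did not overlap for 435 genes on the higher side (3.13%) and 633 on the lower side (4.55%). The cultures differed in the size of their differences. Across the 8127 genes with a mean of at least 10 CPM, the SD of the log2 difference was 0.27 in culture 2, 0.37 in culture 3 and 0.79 in culture 6. Pearson's r between cultures across these genes was 0.45 (2 with 3), 0.48 (2 with 6) and 0.54 (3 with 6). These are descriptions across genes that share libraries, and genes are not independent replicates. Without culture 6 the number at an unadjusted p under 0.05 was 1278 in place of 2690, against 2971 without culture 2 and 2409 without culture 3.

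A further fit, chosen after these results were seen, took 1 polysomal effect shared by the LY6C and LY6G populations over 6 pairs of libraries, 3 of each population. It called 1079 genes higher (7.76%) and 1407 lower (10.1%). List members that it called, counted below, are to be read beside these shares. Below, a gene is said to pass the shared fit when its adjusted p there (edgeR) is under 0.05. Such a call speaks of both populations together and is not a call for LY6C alone. Both populations carry the numbers 2, 3 and 6, and the fit counts the 6 pairs as independent. If a number marks 1 marrow culture from which both were sorted, there were 3 cultures and its p values are too small.

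**Figure D1:**
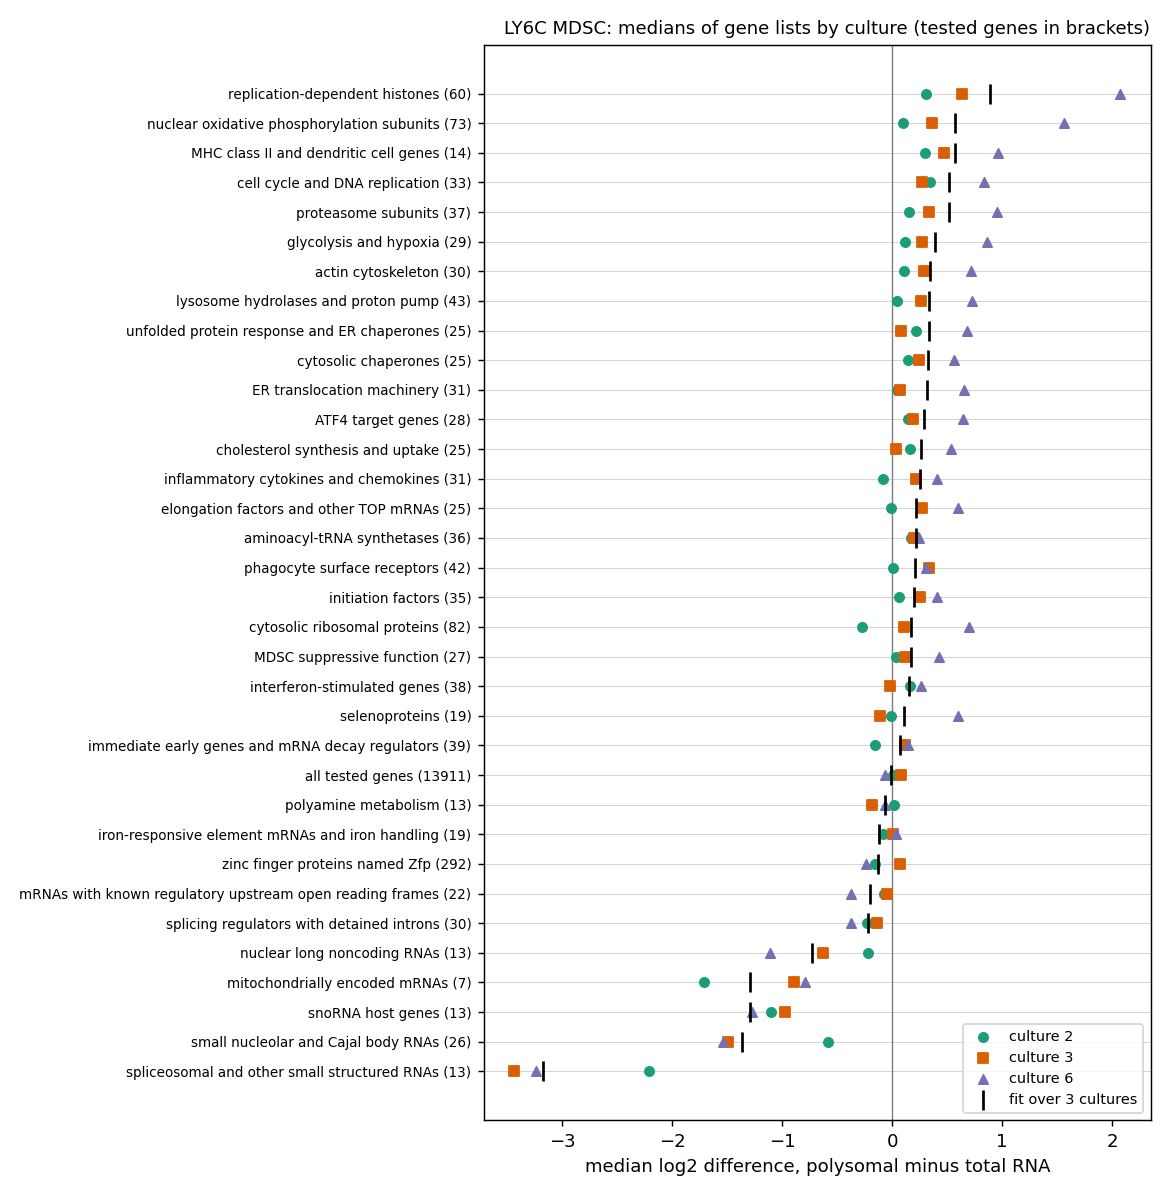
Median log2 difference, polysomal minus total RNA, of each gene list in LY6C cells (number of tested members in brackets). Coloured points are single cultures, and black bars are medians of the fit over the 3 cultures. Small structured RNAs, snoRNA host genes and mitochondrially encoded mRNAs lie left of 0 in every culture, while histone, proteasome and cell cycle lists lie right of 0 in every culture and farthest in culture 6.

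Ferritin mRNAs were lower in polysomal than in total RNA in each culture. Fth1 and Ftl1 encode the heavy and light chains of ferritin, the iron storage shell, and Slc40a1 encodes ferroportin, the iron exporter. All carry an iron-responsive element in the 5′ UTR, a hairpin with the loop CAGTGN that iron regulatory proteins bind when iron is scarce. The hairpins below were found in GENCODE M21 transcripts (GRCm38). They are printed because they are the known translational switch of these mRNAs, with the loop in capitals and the positions on chr19:9982733-9982759 (plus strand), chr7:45459780-45459806 (minus) and chr1:45925466-45925492 (minus) in the order of the lines.
Fth1: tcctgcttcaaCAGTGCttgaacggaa
Ftl1: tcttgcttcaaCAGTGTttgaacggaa
Slc40a1: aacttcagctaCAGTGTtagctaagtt

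The search asked for a C, 5 bases, CAGTGN with any base but G last, and 5 bases that pair with those before the loop, G with U allowed, in the sense strand only. It matched 12 of 11283 5′ UTRs of tested genes with at least 17 bases (0.106%) and 58 of 11504 3′ UTRs (0.504%). A match is a description and not a measured binding site.

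Fth1 had 583, 239 and 627 CPM in polysomal RNA of cultures 2, 3 and 6, against 1544, 297 and 3091 CPM in total RNA. Polysomal RNA was thus lower in each culture, least in culture 3, and the fractions overlapped because culture 3 held little Fth1 in both. The log2 difference was -1.35 ± 0.35 (SE, n = 3; edgeR adjusted p = 0.196, DESeq2 0.005; limma 0.264), and Fth1 passed the shared fit (adjusted p = 0.008).

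Ftl1 had 725, 573 and 1137 CPM in polysomal and 1692, 873 and 4604 CPM in total RNA, again lower on polysomes in each culture. Its log2 difference was -1.28 ± 0.26 (edgeR adjusted p = 0.141), and it passed the shared fit (adjusted p = 0.002). Reads of Ftl1 can be shared with the copy Ftl1-ps1, whose mean was 2.29 CPM in polysomal and 8.22 CPM in total RNA.

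Slc40a1 had 27.8, 33.8 and 6.29 CPM in polysomal and 50.8, 53.6 and 32.0 CPM in total RNA. The difference was -1.18 ± 0.29 (edgeR adjusted p = 0.180, DESeq2 0.007, limma 0.056, shared fit 0.009), and Slc40a1 was lower in 3 of 3 cultures. Slc25a37, the mitochondrial iron importer mitoferrin, had no match in the search and a similar difference of -1.21 ± 0.31, also lower in all 3 cultures.

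Not every mRNA with such a hairpin had a low polysomal share. Tfrc, the transferrin receptor, carries its hairpins in the 3′ UTR, where they are known to act on mRNA decay, and 4 were found there. Its difference was -0.12 ± 0.13 with mixed signs. Among the other 5′ matches, Vti1b was lower in all 3 cultures (-0.57 ± 0.23) and Eif2s1 higher in all 3 (0.49 ± 0.21), while Ecd, Malt1, Nasp, Nfib, Serpina3g and Ftl1-ps1 had mixed signs. The whole iron list had a median of -0.12, which was -0.01 without culture 6. Of its 19 tested members 5 were higher and 5 lower in all 3 cultures, near the 22.3% and 20.8% of all tested genes. On the higher side were Pcbp1, an iron chaperone that loads ferritin (0.78 ± 0.29), and Ncoa4, the receptor for ferritin breakdown (0.48 ± 0.16). Erythroid markers, given above, stayed at a summed level under 45 CPM in every library, and the part of erythroid cells in the iron values was not tested.

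**Figure D2:**
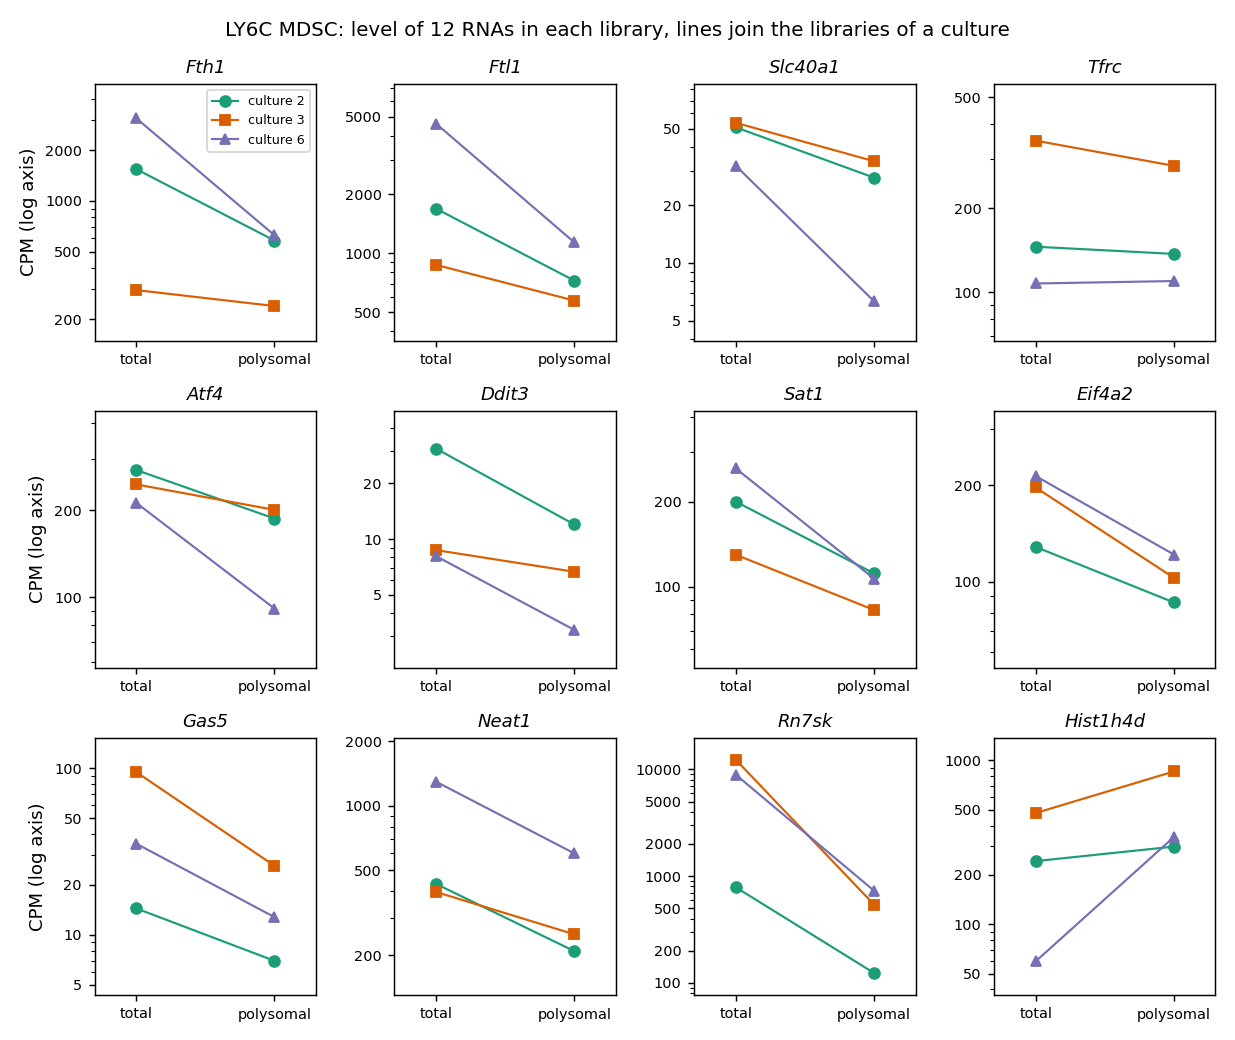
Level in CPM (log axis) of 12 RNAs in the total and polysomal library of each LY6C culture, with lines joining the libraries of a culture. All lines of Fth1, Ftl1, Slc40a1, Atf4, Ddit3, Sat1, Eif4a2, Gas5, Neat1 and Rn7sk point down, and those of Hist1h4d point up, most steeply in culture 6.

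Transcripts of the integrated stress response come next. This pathway slows initiation, and mRNAs such as Atf4, Atf5 and Ddit3 (CHOP) hold upstream open reading frames that keep ribosomes off the main frame in unstressed cells. Atf4 had 187, 200 and 91.5 CPM in polysomal and 275, 245 and 212 CPM in total RNA. The fractions did not overlap, and the difference was -0.68 ± 0.19 (edgeR adjusted p = 0.208, DESeq2 0.057, limma 0.121, shared fit 0.018). Ddit3 had 12.0, 6.66 and 3.23 CPM in polysomal and 30.8, 8.72 and 8.09 CPM in total RNA, a difference of -1.07 ± 0.23 (edgeR adjusted p = 0.154; shared fit 0.004). Atf5 had 46.2, 40.5 and 49.7 CPM in polysomal and 69.2, 53.9 and 122.9 CPM in total RNA and did not overlap either (-0.77 ± 0.19). Ppp1r15a (GADD34), which dephosphorylates eIF2α, was lower in all 3 cultures at -0.44 ± 0.15. Its constitutive relative Ppp1r15b was higher in all 3 at 0.23 ± 0.15.

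The full list of mRNAs with known regulatory upstream frames was mixed. Of 22 tested members, 10 were lower and 7 higher in all 3 cultures, beside 20.8% and 22.3% of all tested genes. The median was -0.20, and -0.02 without culture 6. The shared fit called 6 lower and 4 higher, beside 10.1% and 7.76% of all tested genes. Slc7a1, a cationic amino acid transporter whose frame is known to permit translation under stress, was among the higher ones at 0.56 ± 0.16. Genes that ATF4 switches on had a median of 0.29 (0.14, 0.19 and 0.65 in cultures 2, 3 and 6), with 16 of 28 higher and 1 lower in all 3 cultures. Shmt2, the mitochondrial serine hydroxymethyltransferase, had 42.9, 145.8 and 61.2 CPM in polysomal and 33.7, 76.2 and 15.5 CPM in total RNA (1.03 ± 0.26). The serine synthesis enzymes Phgdh and Psat1 were higher in all 3 at 0.80 ± 0.27 and 0.63 ± 0.18. Chaperones and other genes of the unfolded protein response had a median of 0.33 (0.22, 0.08 and 0.68 in the cultures; 12 of 25 higher and 1 lower in all 3), with Pdia3 at 0.81 ± 0.30 and Pdia6 at 0.66 ± 0.25.

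Polyamine genes include known cases of frame control. Sat1, which acetylates spermidine and spermine, had 111.5, 82.8 and 106.8 CPM in polysomal and 200.3, 129.9 and 262.5 CPM in total RNA. The fractions did not overlap, and the difference was -0.93 ± 0.18 (edgeR adjusted p = 0.133; DESeq2 9.5e-04; limma 0.017; shared fit 0.002). Odc1, ornithine decarboxylase, and Amd1, adenosylmethionine decarboxylase, were lower in all 3 cultures at -0.33 ± 0.19 and -0.50 ± 0.26. Oaz1, the antizyme, and Azin1, its inhibitor, had mixed signs at 0.25 ± 0.18 and -0.23 ± 0.15. The 13 tested members had a median of -0.06, which turned to 0.04 without culture 3.

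Noncoding RNAs come next. The 13 tested spliceosomal and other small structured RNAs, of 28 in the table, had a median of -3.18 (-2.22, -3.44 and -3.24 in cultures 2, 3 and 6), and each had lower values in polysomal RNA. The value of Rn7s1, a gene of the signal recognition particle RNA, rested in culture 2 on 0 against 2 counts and gives no direction there. With 0, 2 and 1 polysomal counts Rn7s1 passed the filter on low counts through total RNA only, so counts over the tested members are a description. The main test called 0 of the 13 lower, limma 2, DESeq2 12 and the shared fit 13. Rn7sk, the 7SK RNA that restrains transcription elongation, had 123, 539 and 728 CPM in polysomal and 786, 12310 and 8916 CPM in total RNA. The difference was -3.60 ± 0.73 (edgeR adjusted p = 0.139, DESeq2 0.006, limma 0.271), and the fractions did not overlap. Terc, the telomerase RNA, had 0.389, 2.35 and 1.61 CPM in polysomal and 1.23, 33.5 and 15.2 CPM in total RNA.

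Small nucleolar and Cajal body RNAs guide the modification of rRNA and snRNA, and 26 of 150 in the table were tested. They had a median of -1.37, with 17 of the 26 lower and 0 higher in all 3 cultures. A member can pass the filter on low counts through total RNA alone, so the median and the counts are a description. Snord17 had 1.71, 15.6 and 11.5 CPM in polysomal and 4.27, 100.1 and 35.1 CPM in total RNA, a difference of -1.94 ± 0.25 (edgeR adjusted p = 0.080; limma 0.002; shared fit 0.001). Many of these RNAs lie in introns of host genes, and without a stated strand and overlap setting their reads cannot be assigned with certainty.

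Counts of snoRNA host genes were on the lower side too, and spliced and intronic reads were not told apart. The spliced transcripts hold only short open reading frames, and several are known targets of nonsense-mediated decay. Of 13 tested hosts 12 were lower and none higher in all 3 cultures, with medians of -1.10, -0.98 and -1.28 in cultures 2, 3 and 6, and the shared fit called 12 lower. Gas5 had 6.97, 25.9 and 12.8 CPM in polysomal and 14.4, 94.8 and 35.2 CPM in total RNA. Its difference was -1.47 ± 0.30 (edgeR adjusted p = 0.141, DESeq2 0.001, limma 0.059). Snhg1 had 5.26, 7.99 and 5.00 CPM in polysomal and 16.4, 14.5 and 12.3 CPM in total RNA, without overlap (-1.30 ± 0.24; edgeR adjusted p = 0.133).

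Of nuclear long noncoding RNAs 8 of 13 were lower and 1 was higher in all 3 cultures, with a median of -0.73 that was -0.32 without culture 6. Total RNA came from a cytoplasmic lysate, and the part of nuclear RNA in it was not measured. Neat1, the scaffold of paraspeckles, had 210, 251 and 599.9 CPM in polysomal and 432, 396 and 1298 CPM in total RNA (-0.94 ± 0.16; edgeR adjusted p = 0.115; DESeq2 7.23e-07; limma 0.008). Malat1, of nuclear speckles, had 2297, 2131 and 4031 CPM against 5094, 3295 and 8170 CPM (-0.93 ± 0.26). The member on the higher side was Kcnq1ot1 at 0.29 ± 0.20, antisense to Kcnq1. Mir142hg, the host of a myeloid microRNA, had 2.57, 5.02 and 1.45 CPM in polysomal and 14.9, 13.2 and 21.4 CPM in total RNA (-2.44 ± 0.36; edgeR adjusted p = 0.106), and Mir22hg was at -1.44 ± 0.24. By class of gene, lincRNAs had a median of -0.58, antisense genes of -0.48, snoRNAs of -1.10 and snRNAs of -2.13, against 0.02 for 11632 protein-coding genes. Over all 1069 tested noncoding genes 424 were lower and 48 higher in all 3 cultures, beside the 20.8% and 22.3% of all tested genes. Noncoding genes too can pass the filter through total RNA alone, so these counts are a description.

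**Figure D3:**
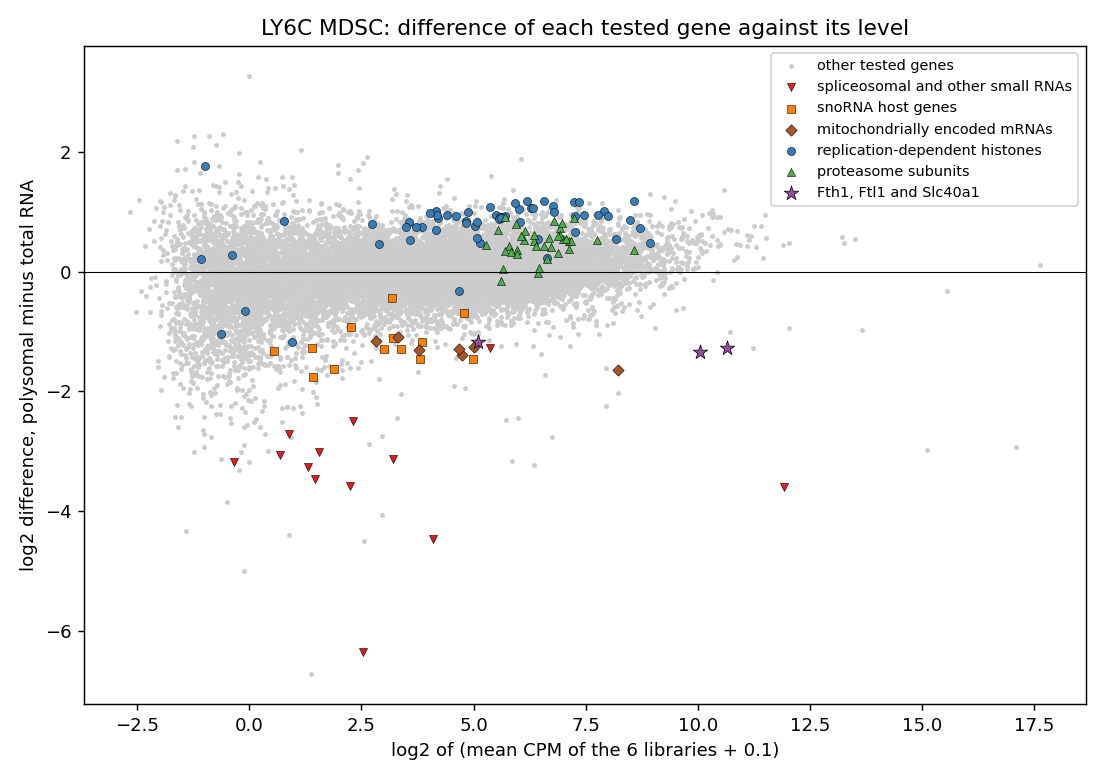
Log2 difference, polysomal minus total RNA, of each tested gene in LY6C cells (fit over 3 cultures) against the log2 of its mean CPM plus 0.1. All 13 small structured RNAs and all 7 mitochondrially encoded mRNAs lie below 0, most histones lie above 0, and the ferritin and ferroportin mRNAs lie between -1.18 and -1.35.

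Splicing regulators with detained introns had a median of -0.22. Such mRNAs are known to be partly held in the nucleus, but total RNA here came from a cytoplasmic lysate, and intron retention was not measured. Of 30 tested members 17 were lower and none higher in all 3 cultures. In the shared fit 15 passed as lower, beside 10.1% of all tested genes. Clk1 and Clk4, kinases of splicing factors, were at -0.71 ± 0.17 and -0.76 ± 0.22, and Ogt, which glycosylates nuclear proteins, at -0.77 ± 0.27. Of zinc finger genes named Zfp 72 of 292 were lower and 29 higher in all 3 cultures, beside 20.8% and 22.3% of all tested genes. The lower share was near that of all tested genes, and the higher share was under it. The median of the Zfp genes was -0.13 (-0.16, 0.07 and -0.24 in the cultures).

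Mitochondrially encoded mRNAs are translated by separate ribosomes inside the organelle. All 7 tested were lower in each culture, with a median of -1.29. The main test and limma called 0 of them, DESeq2 5 and the shared fit 7. The other 6 of the 13 in the table did not pass the filter on low counts. mt-Co1, a subunit of cytochrome oxidase, had 182, 165 and 80.1 CPM in polysomal and 667, 428 and 255 CPM in total RNA, without overlap. Its difference was -1.64 ± 0.40 (edgeR adjusted p = 0.180, DESeq2 0.003, limma 0.357, shared fit 0.005). The median of the 7 mRNAs was -0.86 without culture 2. Both mitochondrial rRNAs were lower too, at -2.97 ± 0.70 for mt-Rnr1 and -2.93 ± 0.72 for mt-Rnr2, which is the shift in library shares given above. The nuclear-encoded subunits of the same respiratory complexes went the other way. Of 73 tested, 46 were higher and 0 lower in all 3 cultures, with a median of 0.58, and 24 passed the shared fit as higher. The medians of cultures 2, 3 and 6 were 0.10, 0.36 and 1.57, and without culture 6 the fitted median was 0.24. Ndufc2 and Uqcr11, small subunits of complexes I and III, were at 1.15 ± 0.36 and 0.96 ± 0.29.

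Ribosomal protein mRNAs start with an oligopyrimidine tract (TOP) through which growth signals tune their translation. Their median was -0.28 in culture 2, 0.10 in culture 3 and 0.70 in culture 6, and the fitted median of 0.17 over 82 genes turned to -0.04 without culture 6. It also turned to -0.03 with limma and to -0.001 in the shared fit. Of the 82, 17 were lower and 8 higher in all 3 cultures, beside 20.8% and 22.3% of all tested genes. The lower share was thus near that of all tested genes, and the higher share was under it. The shared fit called 11 lower and 0 higher, beside 10.1% and 7.76% of all tested genes. Rps12 had 66.7, 229 and 48.3 CPM in polysomal and 128, 337.5 and 150 CPM in total RNA. Its difference was -1.03 ± 0.27 (edgeR adjusted p = 0.194, DESeq2 0.017, limma 0.214, shared fit 0.007). The stalk proteins Rplp0 and Rplp1 were lower in all 3 cultures at -0.81 ± 0.25 and -0.89 ± 0.26. Rpl27 and Rpl19 were higher in all 3 at 1.01 ± 0.35 and 0.80 ± 0.29. Ribosomal protein genes have many processed copies, so reads may be split between them.

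Elongation factors and other TOP mRNAs had 11 of 25 members higher and 1 lower in all 3 cultures. The lower one was Pabpc1, the poly(A)-binding protein, known to limit its own translation, with a difference of -0.75 ± 0.17 (edgeR adjusted p = 0.178; shared fit 0.003). Among 35 initiation factors 19 were higher and 6 lower in all 3. Eif4a2, an RNA helicase, had 86.0, 102.7 and 121.5 CPM in polysomal and 128.4, 197 and 214 CPM in total RNA, without overlap (-0.78 ± 0.15; edgeR adjusted p = 0.133; DESeq2 0.003; limma 0.017; shared fit 0.002). Its gene hosts snoRNAs in introns. Eif5, also known for autoregulation, was at -0.34 ± 0.13, and Eif6, which keeps the large ribosomal subunit free, at 0.82 ± 0.28. Aminoacyl-tRNA synthetases had a median of 0.21 with nearly equal cultures (0.17, 0.20 and 0.24), and 18 of 36 were higher and 3 lower in all 3. In the shared fit 13 passed as higher and 1 as lower, beside 7.76% and 10.1% of all tested genes.

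Histone mRNAs of the replication type lack a poly(A) tail and end in a stem loop that its binding protein uses to promote processing and translation. Their stem loops are printed because they replace the tail, with the 16-base element in capitals and 5 bases on each side, from GENCODE M21. Those of Hist1h4d and Hist1h2ab lie on chr13:23581950-23581965 and chr13:23751572-23751587 (plus strand) and that of Hist1h1c on chr13:23739512-23739527 (plus).
Hist1h4d: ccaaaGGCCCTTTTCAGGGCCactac
Hist1h2ab: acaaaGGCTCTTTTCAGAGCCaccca
Hist1h1c: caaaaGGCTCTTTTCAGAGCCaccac
Hist1h4i: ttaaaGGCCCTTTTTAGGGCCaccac

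The pattern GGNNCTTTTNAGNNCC was found after the stop codon in 51 of 11641 tested coding transcripts (0.438%) and in 40 of 46 tested histone genes whose annotated 3′ UTR has at least 16 bases. Of 60 tested histone genes 50 were higher and 3 lower in all 3 cultures, with a median of 0.89 and medians of 0.31, 0.64 and 2.07 in cultures 2, 3 and 6. Without culture 6 the median was 0.51. The shared fit called 35 higher and 3 lower, beside 7.76% and 10.1% of all tested genes. DESeq2 called 4 higher, and the main test and limma 0.

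Hist1h4d, which encodes histone H4, had 298, 857 and 341 CPM in polysomal and 243, 477 and 59.3 CPM in total RNA. Culture 6 had the lowest total RNA value, and the fractions overlapped (1.19 ± 0.37, edgeR adjusted p = 0.208, DESeq2 0.042, limma 0.230, shared fit 0.039). Hist1h1d, a linker histone, was at 0.73 ± 0.22 and Hist2h2ac, an H2A gene, at 0.83 ± 0.22. The 3 genes lower in all 3 cultures were Hist1h4i at -0.33 ± 0.18, Hist2h2be at -1.18 ± 0.37 and Hist3h2a, which had at most 1.18 CPM in any library. Hist1h4i carries the stem loop printed above, and Hist2h2be has no match in its annotated 3′ UTR of 2192 bases. Histone genes are near copies of each other, so single values are uncertain.

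Other genes of dividing cells lay on the same side. Of 33 cell cycle and replication genes 28 were higher and 0 lower in all 3 cultures (median 0.52; 0.34, 0.27 and 0.84 in cultures 2, 3 and 6), and 20 passed the shared fit as higher. Mcm5, of the replicative helicase, had 136.9, 355 and 87.5 CPM in polysomal and 102.6, 257.5 and 51.8 CPM in total RNA. Its difference was 0.54 ± 0.14 (edgeR adjusted p = 0.191, DESeq2 0.057, limma 0.078, shared fit 0.006). Rrm1 and Tyms, which supply deoxynucleotides, were at 0.72 ± 0.21 and 0.65 ± 0.17.

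Proteasome subunits build the protease of ubiquitinated proteins. Of 37 tested, 32 were higher and 1 lower in all 3 cultures, with a median of 0.52 (0.16, 0.34 and 0.96 in cultures 2, 3 and 6, and 0.30 without culture 6). The shared fit called 24 higher and 0 lower, beside 7.76% and 10.1% of all tested genes. The immunoproteasome subunits Psmb8 and Psmb9 were at 0.62 ± 0.20 and 0.61 ± 0.17. Cytosolic chaperones had 17 of 25 higher and 0 lower in all 3 (median 0.32; 0.14, 0.25 and 0.56 in cultures 2, 3 and 6), with Stip1, a cochaperone of HSP90, at 0.65 ± 0.18 and Cct7, of the chaperonin ring, at 0.56 ± 0.19. Glycolysis and hypoxia genes had 20 of 29 higher and 2 lower (median 0.39; 0.12, 0.27 and 0.87 in the cultures), with Pgk1 at 0.82 ± 0.25 and Hk1 at 0.70 ± 0.19. Lysosomal genes had 24 of 43 higher and 2 lower, with a median of 0.33 (0.04, 0.26 and 0.73 in the cultures) that was 0.14 without culture 6. In that list the protease Ctss was at 0.84 ± 0.29, and the lysosomal channel Mcoln1 was lower in all 3 at -0.64 ± 0.19. ER translocation genes had 12 of 31 higher and 6 lower, with a median of 0.32 (0.04, 0.07 and 0.65 in the cultures). Cholesterol genes had 12 of 25 higher and 2 lower, with a median of 0.26 (0.17, 0.04 and 0.54). Most of the size of both medians came from culture 6, and the cholesterol median was 0.13 without it. Selenoproteins had 3 of 19 higher and 3 lower, beside 22.3% and 20.8% of all tested genes. Their median of 0.11 turned to -0.07 without culture 6, and Selenow was at -1.25 ± 0.40.

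Genes of suppressive function include the enzymes and ligands by which MDSC hold back T cells. Of 27 tested, 10 were higher and 4 lower in all 3 cultures, beside 22.3% and 20.8% of all tested genes. Their median was 0.17 (0.03, 0.12 and 0.43 in the cultures). Arg1, the arginase of MDSC, had 31.3, 10.7 and 2554 CPM in polysomal and 24.9, 10.3 and 1165 CPM in total RNA. Its level differed between cultures far more than between fractions, and the difference was 0.56 ± 0.28 (edgeR adjusted p = 0.298). Nos2, the inducible nitric oxide synthase, showed the same split, with 3.08, 3.79 and 1434 CPM against 2.56, 4.25 and 510 CPM, and signs were mixed (0.76 ± 0.29). Cyba, a subunit of the phagocyte oxidase, was higher in all 3 at 0.80 ± 0.32, and Nt5e, the ecto-nucleotidase CD73, lower in all 3 at -0.43 ± 0.15.

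Inflammatory cytokines and chemokines had 11 of 31 higher and 1 lower in all 3 cultures, beside 22.3% and 20.8% of all tested genes. Their median was 0.25, but -0.08 in culture 2, 0.00 without culture 6 and -0.14 in LY6G. Ccl17 and Cxcl16 were higher in all 3 at 1.09 ± 0.34 and 0.51 ± 0.17. Immediate early genes and decay regulators had a median of 0.07 (-0.15, 0.12 and 0.15 in the cultures), with 23 of 39 positive and 16 negative. Of the 39, 12 were lower and 6 higher in all 3 cultures, beside 20.8% and 22.3% of all tested genes. The shared fit called 11 lower and 2 higher, beside 10.1% and 7.76% of all tested genes. The transcription factor Egr1 and the nuclease Zc3h12a, which degrades cytokine mRNA, were at -0.64 ± 0.21 and -0.48 ± 0.16, and Myc was at 0.84 ± 0.24. Interferon-stimulated genes had 14 of 38 higher and 3 lower in all 3, beside 22.3% and 20.8% of all tested genes. Their median was 0.16, and -0.02 in culture 3.

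MHC class II and dendritic cell genes had 9 of 14 higher and 0 lower in all 3 cultures, with a median of 0.57 (0.30, 0.47 and 0.96 in the cultures), and 7 passed the shared fit. Cd74, the invariant chain, was at 1.01 ± 0.34, H2-Aa at 0.78 ± 0.26 and the costimulator Cd86 at 0.55 ± 0.14. Phagocyte receptors had 15 of 42 higher and 5 lower, beside 22.3% and 20.8% of all tested genes. Their median was 0.21 (0.01, 0.34 and 0.31 in the cultures). The inhibitory receptors Lilrb4a and Pirb were lower in all 3 at -1.38 ± 0.39 and -0.59 ± 0.15, and Itgax (CD11c) was higher at 0.56 ± 0.18. Itgam, the CD11b of the sort gate, had 166, 99.9 and 59.6 CPM in polysomal and 166, 135 and 219 CPM in total RNA, a difference of -0.75 ± 0.29 with no difference in culture 2. Csf1r, the receptor for macrophage colony-stimulating factor, was higher in all 3 at 0.31 ± 0.20. Monocyte and macrophage markers had a median of 0.41, with 13 of 25 higher and 1 lower, and C1qa and C1qc, of complement C1q, were at 0.84 ± 0.24 and 1.22 ± 0.38. Neutrophil maturation genes had a median of 0.40 (0.02, 0.33 and 0.76 in the cultures) that was 0.22 without culture 6, with 12 of 26 higher and 1 lower. Actin cytoskeleton genes had 19 of 30 higher and 2 lower, with the monomer-binding thymosins split, as Tmsb4x was at -1.001 ± 0.24 and Tmsb10 at 0.71 ± 0.23. The reference genes Actb, Gapdh and Eef1a1 were at 0.57 ± 0.30, 0.62 ± 0.31 and 0.25 ± 0.23. Actb was higher in all 3 cultures, while Gapdh and Eef1a1 had mixed signs.

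Protein-coding genes with the lowest p on the higher side followed, each higher in all 3 cultures, and none passed the main test. Ifit1bl1, an interferon-induced gene, had 3.50, 2.87 and 338 CPM in polysomal and 2.19, 0.894 and 50.9 CPM in total RNA (1.88 ± 0.38; edgeR adjusted p = 0.138; DESeq2 0.001; limma 0.089). Aldh1b1, a mitochondrial aldehyde dehydrogenase, had 8.41, 7.48 and 34.7 CPM in polysomal and 4.603, 4.25 and 8.43 CPM in total RNA (1.27 ± 0.28; edgeR adjusted p = 0.154). Both genes had their highest level in culture 6 in both fractions. The zinc importer Slc39a2 was at 1.302 ± 0.301, without overlap. Fdx1, the mitochondrial ferredoxin, was at 1.01 ± 0.23, Mthfd1, of one-carbon metabolism, at 0.67 ± 0.16 and Arl10 at 0.64 ± 0.16. Kdr, a VEGF receptor and an endothelial marker, was at 0.86 ± 0.21, and Anpep, aminopeptidase N, at 0.79 ± 0.20.

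Protein-coding genes of lowest p on the lower side are given in the same way, each lower in all 3 cultures. Amn1 had 14.8, 9.22 and 7.59 CPM in polysomal and 41.5, 16.99 and 14.8 CPM in total RNA, without overlap (-1.16 ± 0.17; edgeR adjusted p = 0.106; limma 0.004; shared fit 0.001). Brk1, a subunit of the WAVE complex that starts actin branching, had 42.2, 32.9 and 15.0 CPM against 73.4, 74.9 and 55.1 CPM (-1.25 ± 0.23; edgeR adjusted p = 0.133). Spop, a substrate adaptor of ubiquitin ligases, had 71.2, 72.0 and 65.4 CPM against 127.9, 104.1 and 145.3 CPM (-0.84 ± 0.16; edgeR adjusted p = 0.133). Polysomal values of Spop lay within a narrow band, and every total RNA value was above them. Aup1, of lipid droplets and ER protein disposal, was at -0.93 ± 0.17, Parp6 at -1.21 ± 0.24, Tmem183a at -1.14 ± 0.23, Jtb at -1.12 ± 0.21, Taf13 of the general factor TFIID at -0.94 ± 0.18 and the lysosomal sulfatase Ids at -0.92 ± 0.18. Il1f9 (IL-36γ), a cytokine of the interleukin-1 family, was at -0.66 ± 0.13 with nearly equal cultures (-0.71, -0.60 and -0.66).

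Features of the transcripts, which the comparison did not use, were set beside the differences. Coding length had a Spearman rho of -0.14 with the fitted difference over 11626 nuclear protein-coding genes, but 0.14 in culture 2, -0.01 in culture 3 and -0.26 in culture 6. The class of shortest genes of 10, with a median coding length of 387 bases, had a median difference of -0.05, 0.12 and 0.63 in cultures 2, 3 and 6. The class of longest genes, at 4554 bases, had 0.11, 0.14 and -0.25. The relation with length thus had opposite signs in cultures 2 and 6. The GC content of the coding part had a positive rho in each culture (0.13, 0.10 and 0.21) and in LY6G (0.21). The length of the 3′ UTR had a negative rho in each (-0.03, -0.07 and -0.21). These are descriptions across genes that share libraries, depth and base composition.

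**Figure D4:**
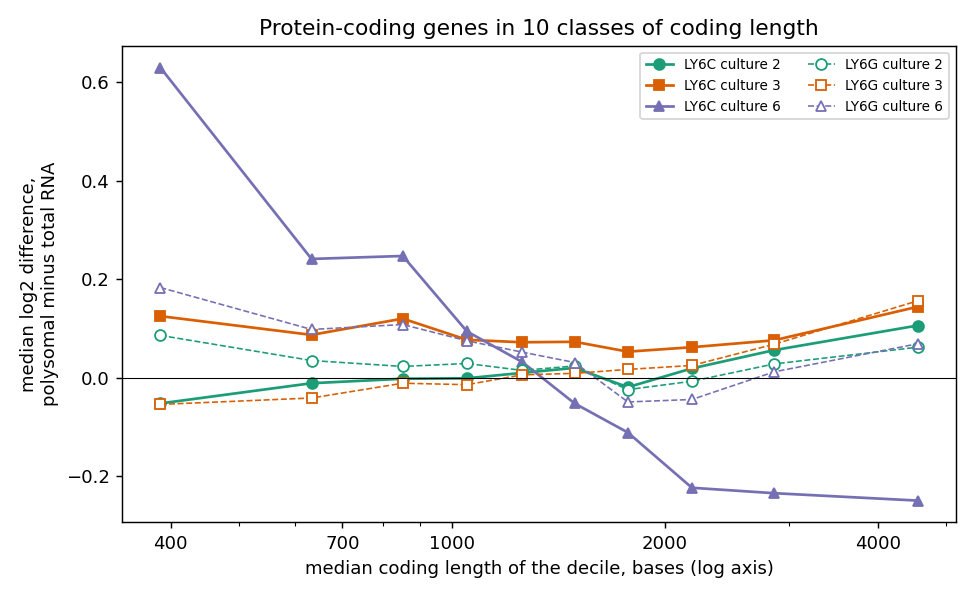
Median log2 difference, polysomal minus total RNA, in 10 classes of protein-coding genes by coding length (log axis), for each culture of LY6C (solid) and LY6G (dashed). In LY6C culture 6 the median runs from 0.63 in the shortest to -0.25 in the longest class, while the other 5 lines stay between -0.054 and 0.183.

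ATG triplets in the 5′ UTR, which can start upstream frames, went with lower values. Genes with 0 such triplets (5476) had a median of 0.08, those with 1 to 2 (3808) of -0.02 and those with 3 or more (2178) of -0.05. Of these classes 15.5%, 21.7% and 23.4% were lower in all 3 cultures, and 29.8%, 22.9% and 19.01% were higher. In culture 2 the class medians were 0.03, 0.01 and 0.01, so the spread there was small, and in culture 6 they were 0.12, -0.11 and -0.23. Genes with more triplets also had longer 5′ UTRs, with medians of 108, 214 and 422 bases, and the parts of length and triplets were not tested apart.

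The same comparison in LY6G cells was set against LY6C. The difference between the populations was tested directly and no gene passed (0% called; lowest edgeR adjusted p = 0.9998), with 113 genes at an unadjusted p under 0.05 (0.812%). DESeq2 and limma called 0 as well. A p that misses the threshold does not show that the populations act alike. The values ran together across genes, with a Pearson's r of 0.85 between the fitted differences of 8127 genes with at least 10 CPM, and 2110 genes were higher and 1872 lower in all 6 pairs of libraries. Fth1 was at -1.36 in LY6G and -1.35 in LY6C, Sat1 at -1.01 and -0.93, Gas5 at -1.40 and -1.47 and Mir142hg at -2.08 and -2.44. Histones had a median of 0.55 in LY6G against 0.89 in LY6C, and ribosomal proteins of -0.15 against 0.17. Ifit1bl1 was at 0.59 in LY6G against 1.88 in LY6C, a difference that did not pass the test.

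**Figure D5:**
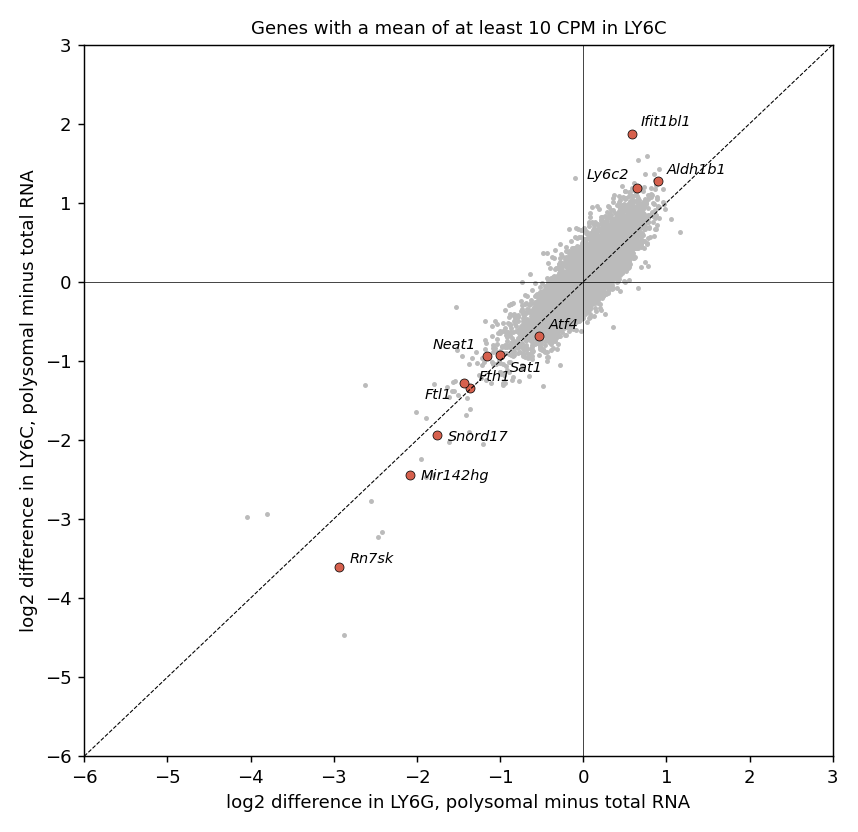
Fitted log2 difference, polysomal minus total RNA, in LY6C (vertical) against LY6G (horizontal) for the 8127 genes with a mean of at least 10 CPM in LY6C, with 11 named genes in red and the line of equal values dashed. Most genes lie along a rising band, Fth1 and Sat1 lie close to the line, and Ifit1bl1 lies above it.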

How the data were processed

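RNA was sequenced from a cytoplasmic lysate and from polysome fractions of a sucrose gradient, with stranded, rRNA-depleted libraries, per the labels' protocols. The authors deposited raw counts of 54838 genes, and the submitters' processing notes name FastQC, STAR 2.5.2a, DESeq, DESeq2 and GRCm38. Counting program, annotation and strand setting are not given in the sources used here, so antisense and overlapping genes are uncertain. GENCODE M21 named 54809 genes.

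The main fit used edgeR 4.0.16 in R 4.3.3 on 12 sorted-cell libraries, with 6 blocks (population and number) and a fraction effect per population (4 residual degrees of freedom), TMM factors, a minimum count of 10 in filterByExpr and Benjamini-Hochberg adjustment over 13911 genes. CPM uses TMM-scaled libraries, and differences within a culture a prior count of 2. One CPM was 4.47 to 26.9 counts. Both fractions of a number come from the same culture, and their deviations from group means correlated at 0.69, 0.66 and 0.58 in LY6C.

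Members and lists were chosen with earlier results of these data known. Named genes needed 10 CPM and 1 direction in all 3 cultures. As no gene passed, those of lowest p were taken, 12 protein-coding and 8 other genes per direction where available, with up to 4 per list, and 18 genes were followed whatever their values. Others named (Rpl19, Rpl27, Pcbp1, Ncoa4, Tfrc, Ppp1r15a, Ppp1r15b, Oaz1, Azin1, the further genes of the hairpin search and the histones printed or lower) were chosen after their values were seen. Lists are described by counts and medians, with no set test. Some items are not reported here. Alternatives were DESeq2 1.42.0, limma 3.58.1, other factors, filters, gene sets and libraries.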

Additional observations from a re-analysis of the deposited data

How the results depend on the processing

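The main fit called 0 genes for LY6C (lowest edgeR adjusted p 0.0665), and so did the fits with median-ratio factors, a filter of 50 counts in 3 libraries, nuclear protein-coding genes only, without mitochondrial and the 50 most abundant genes, with LY6C libraries alone and with all 18 libraries unblocked. Leaving out 1 LY6C culture at a time, with all LY6G libraries kept, gave 0 to 0 calls for LY6C and 0 to 0 for the difference between populations. For LY6G, of which no culture was left out, these fits called 0 to 131 (131 without LY6C culture 6). Without the replicate block, which ignores that both fractions share a culture, 0 genes were called (lowest adjusted p 0.882) and 765 had an unadjusted p under 0.05, in place of 2690. For LY6C, DESeq2 called 235, limma 73, no filter on low counts 1393 and all 18 libraries with the block 25, and the shared effect over 6 pairs of libraries 2486. For LY6G these were 288, 1060, 1073 and 94, against 0 in the main fit. For the difference between populations, no filter gave 8. The cause was not tested. Log2 differences of named genes kept their sign except Ly6g, at 0.041 without culture 6, -0.212 without culture 2 and 0.019 in the shared fit, and the log2 difference of Ly6c1, at 0.42 with DESeq2, 0.876 with limma and -0.556 to 2.192 when 1 culture was left out, the last without culture 6. Depth limits Ly6c1 and many small RNAs, which had few counts per library.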
